A study of Homo sapiens with 12 samples.

Results

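The mitochondrial ribosomal protein genes encode the proteins of the ribosome that works inside mitochondria. They were taken as the protein-coding genes whose GENCODE v29 symbol is MRPL or MRPS followed by a number, with or without a final letter. Of the 16676 genes with deposited values, 78 met this rule, 49 with an MRPL symbol (large subunit) and 29 with an MRPS symbol (small subunit). All 78 passed the filter on low values, so no member was left out of a test. They lie on 21 chromosomes.

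RNA of HCT116, an established human colon carcinoma line, was sequenced in 12 libraries that form 6 groups of 2 replicates, named a and b. The groups with 1 µM doxorubicin for 48 h (dox) were cells that over-express the long non-coding RNA SPARCLE (OE), cells that lack it through knockout (KO) and wild-type cells (WT). Each had a counterpart in regular medium (control). Doxorubicin traps topoisomerase II on DNA and causes double-strand breaks. The labels name no clones, so whether the KO and OE replicates are independently made lines is unknown, and the p-values measure the spread between these libraries only. The comparisons ask how the genes respond to dox, whether KO and OE cells differ from WT cells in either medium, and whether the response to dox differs between the lines.

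The mitochondrial ribosome translates the small set of membrane proteins of the respiratory chain and ATP synthase that mitochondrial DNA encodes. Its rRNAs come from mitochondrial DNA, but its proteins are encoded in the nucleus, made in the cytosol and imported. Some of these proteins descend from bacterial ribosomal proteins, and others are particular to mitochondria. Symbols do not always follow position: MRPS18A and MRPS30 sit in the large subunit of the human mitochondrial ribosome, MRPL58 (ICT1) is a peptidyl-tRNA hydrolase built into it, and MRPS36 was later described as a subunit of the 2-oxoglutarate dehydrogenase complex.

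SPARCLE, the manipulated gene, stood at 12.1 and 16.9 scaled TPM in OE dox and at 27.7 and 32.3 in OE control, and at most at 0.122 in each of the 8 other libraries. It was therefore near 0 in WT as well as KO cells, and its level does not tell these lines apart. CDKN1A, a p53 target, ranged over 527 to 912 scaled TPM in dox and 82.4 to 112 in control libraries. Scaled TPM is the deposited TPM, transcript abundance per gene length and library total, divided by a factor per library (0.797 to 1.186). The division brings the median gene of all libraries to the same level. Reads recovered from the table ranged from 11237760 to 27588651 per library on 15182 genes, of which 41540 to 122163 fell on the members. WT control b and OE control a stood apart in mitochondrial rRNA, with MT-RNR1 at 2040 and 1990 scaled TPM against 76.1 to 159 in the other libraries, and had the fewest reads. Of the colon epithelium markers, 7 of 8 were listed (not CDX1), with a summed level of 2270 to 3300 scaled TPM in dox and 1040 to 2130 in control libraries. None of 5 leukocyte markers was listed. Of the fibroblast markers, 2 of 6 were listed, with a summed level of 2.65 to 6.03 in dox and 3.25 to 5.88 scaled TPM in control libraries, of the endothelial markers 1 of 3 (0.167 to 0.32 in dox, 0.138 to 0.344 in control), and of the kidney or neural markers 3 of 4 (31.2 to 42.4 in dox, 28.1 to 48.2 in control). The part of the epithelial markers in the results was not tested.

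Dox changed the transcripts of the mitochondrial ribosome unevenly. Over the 3 lines, 37 of the 78 genes rose and 8 fell, and 33 were not called. The largest rise was that of MRPS16, a small-subunit protein of bacterial descent, by 1.41 on the log2 scale. The largest fall was that of MRPL55, a large-subunit protein, by 1.03. A gene was called where limma gave a p under 0.05 after Benjamini-Hochberg adjustment over all 15256 genes tested. Among all those genes, 34.2% were called higher and 32.4% lower in the same comparison, so the share of members that rose (47.4%) was above the background and the share that fell (10.3%) below it. The members' median difference was 0.23, beside 0.03 for all genes. The count that fell was 4 without WT dox a, without KO control b, without OE dox a or with TPM as deposited, and 5 without KO dox a or OE control a. The dox libraries all lay above the control libraries for 31 members and all below them for 2, where 22.8% and 21.1% of all genes were so placed. Differences are on the log2(scaled TPM + 1) scale, which understates the change of low genes, and are relative to the median gene. In bulk RNA, less RNA per cell and fewer cells of a kind cannot be told apart.

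**Figure D1:**
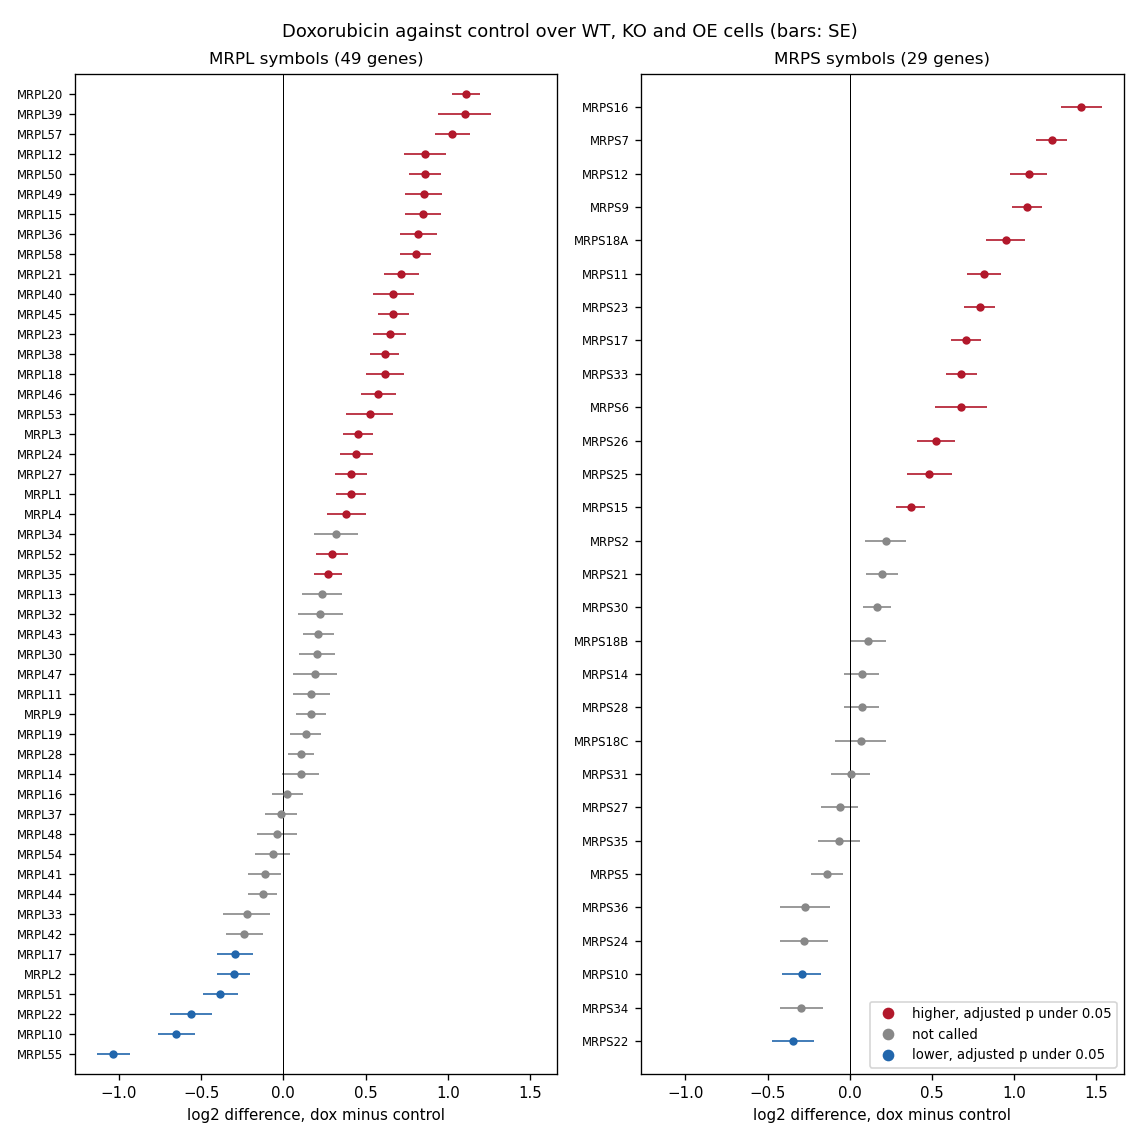
Log2 difference of dox minus control over WT, KO and OE cells for each of the 78 genes, with MRPL symbols on the left and MRPS symbols on the right; dots are estimates, bars are the standard error of limma, and colour marks the call. Most called genes are on the right of 0, with 37 higher and 8 lower, and the range runs from MRPL55 at -1.03 to MRPS16 at 1.41.

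In OE cells the summed level of the 78 genes was 2290 and 2620 scaled TPM with dox, against 2070 and 2090 in regular medium. In KO cells it was 2340 and 2330 with dox, against 1900 and 2080 in regular medium, and in WT cells 2620 and 2770 with dox, against 2070 and 2020. No dox library was as low as the highest control library. As a share of the TPM of protein-coding genes the members took 0.842 to 0.959% in dox libraries and 0.611 to 0.702% in control libraries. This share also depends on the summed level of the other protein-coding genes, so it does not measure the members alone.

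Upstream sequences of MRPS18A and MRPL50 are shown whole, since among the genes with the largest changes their windows overlap no annotated exon. Those of MRPS16, MRPS7, MRPL20, MRPL39, MRPS12, MRPS9, MRPL57, MRPL12 and MRPL55 overlap an exon of the GENCODE annotation and are not shown whole. The sequences are from RefSeq (GRCh38.p14), 5′ to 3′ on the strand of the gene. RefSeq promoter windows matched 69 of the 78 genes, and MRPL10, MRPL13, MRPL15, MRPL2, MRPL21, MRPL23, MRPL35, MRPS28 and MRPS36 had no match. Capitals mark letters searched on both strands in the 250 bases before the start: CGCANGCGC (nuclear respiratory factor 1, NRF1), CCGGAAG (ETS factors, such as GABP), GGGCGGGG (SP1), AAGATGGCG (YY1) and CACGTG (the E-box). The first is the 120 bases before MRPS18A, chr6:43687792-43687911 on the minus strand, with an SP1 and an ETS match. The second is the 120 bases upstream of MRPL50, chr9:101398619-101398738 on the minus strand, with none of the 5.
MRPS18A: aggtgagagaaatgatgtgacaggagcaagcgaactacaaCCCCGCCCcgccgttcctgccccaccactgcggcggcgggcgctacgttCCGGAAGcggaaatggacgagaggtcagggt
MRPL50: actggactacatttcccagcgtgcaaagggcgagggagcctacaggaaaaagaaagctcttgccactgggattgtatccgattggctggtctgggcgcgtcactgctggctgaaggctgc

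Before MRPS16, MRPL39, MRPS12 and MRPL12 none of the 5 motifs was found in the 250 bases, and before MRPS7 only the SP1 letters, farther than 120 bases from its start. For the other genes named above, which have a match nearer to the start, 30 bases around it are given. MRPL20 has a pair of ETS matches at chr1:1407308-1407337 on the minus strand. MRPS9 has an NRF1 and an SP1 match at chr2:105038028-105038057 on the plus strand. MRPL57 has an NRF1 match at chr13:21176575-21176604 on the plus strand. MRPL55, which fell, has an SP1 match at chr1:228109377-228109406 on the minus strand.
MRPL20: CCGGAAGtatcgcaggggctgacCCGGAAG
MRPS9: aGCGCCTGCGccgtctctaggCCCCGCCCc
MRPL57: ctcggctctgCGCAGGCGCagtcctctctc
MRPL55: cgccgcgccggCCCCGCCCaacaggggcgt

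The ETS letters were found before 23 of the 69 members (33.3%), against 11.8% of 15843 protein-coding promoters of the same length. Those promoters were taken whether or not their genes passed the filter on low values, which all members passed. The shares of all promoters are therefore not those of the genes tested here. NRF1 letters were found before 10 (14.5% against 9.75% of all), SP1 letters before 26 (37.7% against 30.7%), E-box letters before 6 (8.7% against 7.84%) and YY1 letters before 3 (4.35% against 0.751%). The ETS share was 30.3% of the 33 matched members that rose (10 genes), 50% of the 6 that fell (3 genes) and 33.3% of the 30 not called (10 genes). ETS letters were thus about as frequent before members that rose as before those not called. A match is a description of letters and not of a bound site.

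MRPS16 had 50.7 and 46.7 scaled TPM in OE dox, 49.9 and 47.4 in KO dox and 58.9 and 62.9 in WT dox, against 22 and 18.2 in OE control, 26 and 16.1 in KO control, with 15.4 and 18.8 in WT control. Each dox library was above each control library, and WT dox was the highest pair. The difference over the 3 lines was 1.41 (SE 0.12, limma adjusted p = 7.32e-06). MRPS7, which binds the small-subunit rRNA, had 28.3 and 34.4 scaled TPM in OE dox, 30.1 and 28.9 in KO dox and 32.7 and 35.2 in WT dox, against 14.6 and 13.3 in OE control, 14.1 and 11.7 in KO control, with 11.1 and 12.8 in WT control. Its groups did not overlap, and it rose by 1.23 (SE 0.09, adjusted p = 3.71e-06).

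MRPS12, the homologue of the bacterial protein at the decoding centre, ranged over 33 to 51.9 scaled TPM in dox (median 41.5, n = 6) and 16.5 to 23.7 in control libraries (median 19.7, n = 6). It rose by 1.09 (SE 0.11, limma adjusted p = 2.03e-05). MRPS9, whose bacterial homologue reaches the peptidyl-tRNA site, ranged over 55.2 to 80.5 scaled TPM in dox (median 69.4) and 30 to 35.2 in control libraries (median 30.4), and rose by 1.08 (SE 0.09, adjusted p = 6.31e-06). Neither gene had a control library at the level of a dox library. The 4 largest rises among MRPS symbols were therefore all those of proteins with bacterial homologues.

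Of the 3 paralogs related to bacterial S18, 1 rose. MRPS18A had 56.7 and 68.1 scaled TPM in OE dox, 61.2 and 61.3 in KO dox and 62 and 62.7 in WT dox, against 46.3 and 35.1 in OE control, 43.1 and 30.6 in KO control, with 19.4 and 23.8 in WT control. The dox libraries of all lines lay close together, and the WT control pair was the lowest. It rose by 0.95 over the 3 lines (SE 0.12, limma adjusted p = 6.28e-05). MRPS18B averaged 53.1 ± 8.93 scaled TPM in dox and 48.8 ± 6 in control libraries (SD over the 3 lines, n = 6 each), and MRPS18C 9.13 ± 1.1 in dox and 8.83 ± 2.19 in control. Their differences, 0.11 (adjusted p = 0.358) and 0.07 (adjusted p = 0.718), did not pass the test.

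**Figure D2:**
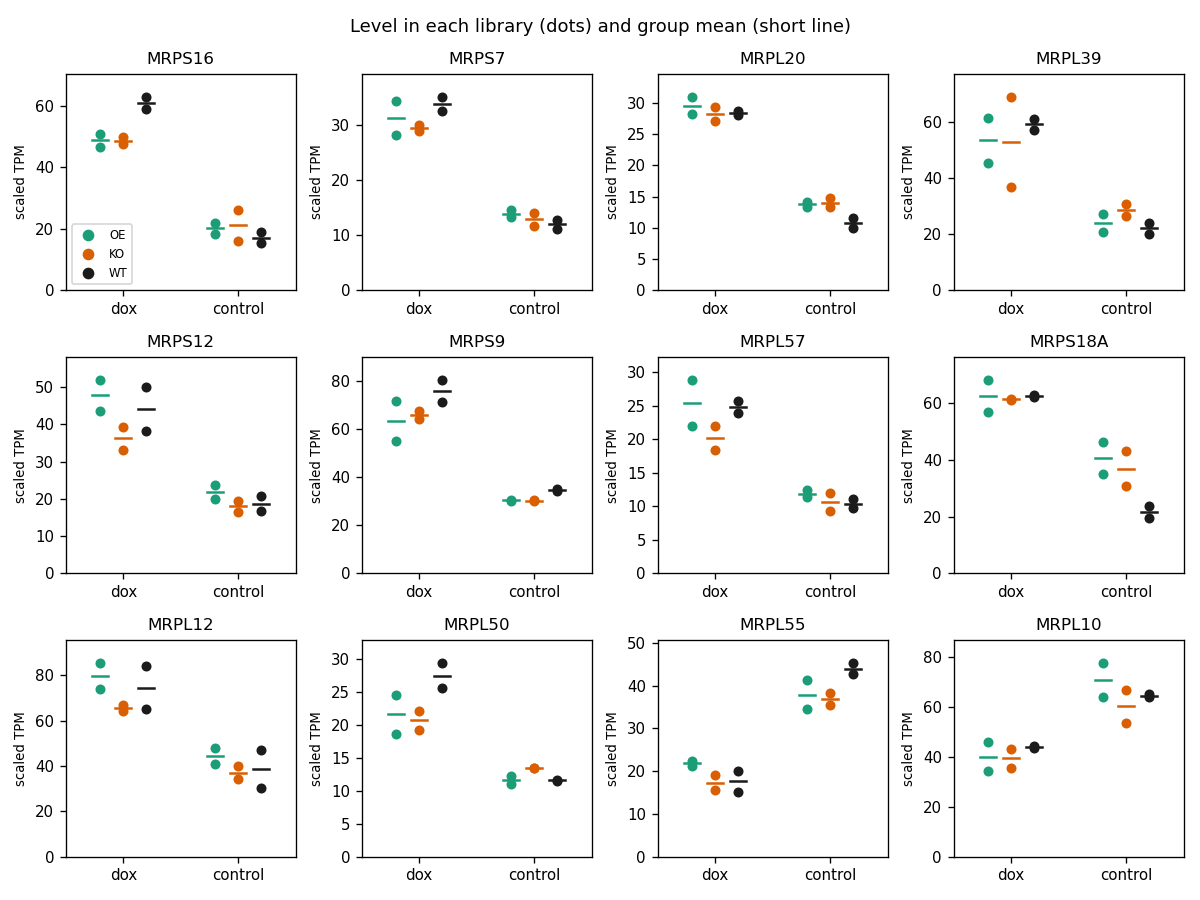
Scaled TPM in each library for the 10 members that rose most and the 2 that fell with libraries that do not overlap, with dox left of control; dots are libraries, short lines are group means of 2, and colour is the line. In all 12 panels the dox and control libraries are apart, and the MRPS18A panel shows WT control (19.4 and 23.8) below KO and OE control.

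Around the stalk of the large subunit, the projection that receives translation factors, the members moved apart. MRPL12, the stalk protein, which has also been reported to bind mitochondrial RNA polymerase, had 74 and 85.4 scaled TPM in OE dox, 64.3 and 66.8 in KO dox and 65.1 and 84 in WT dox, against 48 and 41 in OE control, 39.9 and 34.3 in KO control, with 30.3 and 46.9 in WT control. It rose by 0.86 (SE 0.13, limma adjusted p = 0.000175), and no libraries overlapped. MRPL10, which holds the stalk to the ribosome, had 34.5 and 45.9 scaled TPM in OE dox, 35.7 and 43.4 in KO dox and 43.6 and 44.6 in WT dox, against 77.7 and 64.2 in OE control, 53.7 and 67 in KO control, with 65.3 and 64.1 in WT control. It fell by 0.65 (SE 0.11, adjusted p = 0.000458), again without overlap. MRPL11, at the base of the stalk, averaged 19.1 ± 2.98 scaled TPM in dox and 17 ± 3.77 in control libraries (SD, n = 6 each) and was not called (difference 0.17, adjusted p = 0.21).

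Other large-subunit genes rose by up to 1.11, near MRPS12 and MRPS9 (1.09 and 1.08) but less than MRPS16 and MRPS7 (1.41 and 1.23). MRPL20, of bacterial descent, ranged over 27.1 to 31 scaled TPM in dox (median 28.5, n = 6) and 10 to 14.7 in control libraries (median 13.4, n = 6), a difference of 1.11 (SE 0.08, limma adjusted p = 3.39e-06). MRPL39, particular to mitochondria, ranged over 36.7 to 69 in dox (median 59.2) and 20 to 30.8 scaled TPM in control libraries (median 25.2), a difference of 1.10 (SE 0.16, adjusted p = 0.000154). Its dox replicates lay far apart in KO cells, at 69 and 36.7 scaled TPM. MRPL57, also without a bacterial homologue, ranged over 18.4 to 28.8 scaled TPM in dox (median 23) and 9.33 to 12.4 in control (median 11.2), and rose by 1.03 (SE 0.11, adjusted p = 1.95e-05). MRPL50 ranged over 18.6 to 29.4 scaled TPM in dox (median 23.4) and 11 to 13.5 in control (median 12), and rose by 0.86 (SE 0.10, adjusted p = 3.35e-05). MRPL58, the hydrolase that frees peptides from stalled ribosomes, averaged 51 ± 4.78 scaled TPM in dox and 28.8 ± 2.68 in control libraries (SD, n = 6 each), and rose by 0.80 (adjusted p = 4.58e-05).

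Only MRPL55 and MRPL10 fell without overlap of libraries. MRPL55 had 21.2 and 22.4 scaled TPM in OE dox, 19 and 15.6 in KO dox and 15.2 and 20.1 in WT dox, against 34.5 and 41.3 in OE control, 35.4 and 38.3 in KO control, with 45.3 and 42.7 in WT control. It fell by 1.03 (SE 0.10, limma adjusted p = 1.52e-05). The other members that fell did so with overlapping libraries. They were MRPL22, which lines the exit tunnel (5.62 ± 0.89 scaled TPM in dox and 8.76 ± 1.4 in control libraries, SD, n = 6 each, difference -0.56, limma adjusted p = 0.00275), MRPL51, MRPS22, MRPL2, MRPL17 and MRPS10, whose differences lay between -0.38 and -0.29.

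MRPL41 (difference -0.11, limma adjusted p = 0.325), MRPS30 (0.17, adjusted p = 0.104), MRPS27 (-0.06, adjusted p = 0.633) and MRPS36 (-0.27, adjusted p = 0.132) did not pass the test over the 3 lines. Without MRPS36 the counts were 37 higher and 8 lower of 77. By symbol, 24 MRPL genes rose and 6 fell of 49 (median 0.27), and 13 MRPS genes rose and 2 fell of 29 (median 0.20). Descent was taken from the number alone and was not checked gene by gene. By number, taken as bacterial in type below MRPS22 and MRPL37, 22 of 44 such genes rose and 5 fell (median 0.30). Of the 34 genes with these or higher numbers, taken as mitochondria-specific, 15 rose and 3 fell (median 0.18). Each of the 4 classes thus held several genes that rose and a few that fell, and the differences between classes were not tested.

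Among the highest and among the lowest members were genes that rose and genes that fell. The 5 highest by mean scaled TPM over the 12 libraries were MRPL18 (73), MRPL51 (69.2), MRPS34 (68.9), MRPL3 (67.1) and MRPL14 (59.8), and the 5 lowest were MRPL46 (4.89), MRPS11 (5.34), MRPL22 (7.19), MRPS18C (8.98) and MRPS33 (9.12). The adjacent means of MRPL51 and MRPS34 differ by less than the spread between libraries, since MRPL51 ranged over 51.6 to 104 scaled TPM and MRPS34 over 53.9 to 97.1. Across the members, Spearman's rho between the difference and the mean level was -0.04, and with the level in control libraries, which is part of the difference, -0.30 (-0.29 across 12572 protein-coding genes). With exon length it was -0.02 and with gene span -0.13. These are descriptions across genes that share the 12 libraries.

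In OE cells, 25 members rose with dox and 3 fell, beside 20.3% and 18.6% of all genes, with a median of 0.27, which was 0.14 without OE dox b and 0.37 without OE dox a. In KO cells 23 rose and 2 fell, beside 18.9% and 18.6% of all genes, with a median of 0.18, and with TPM as deposited 1510 of all genes were called higher and 2185 lower there, where the scaled values gave 2890 and 2845. In WT cells 31 rose and 2 fell, beside 23% and 22.4%, with a median of 0.36. With TPM as deposited the median of all genes in WT cells was 0.17 and that of the members 0.55, and 2994 of all genes were called higher and 1920 lower, where the scaled values gave 3502 and 3420. MRPS16, MRPS7 and MRPL20 were among the 5 largest non-overlapping rises in each line, joined in OE cells by MRPL39 and MRPS12, in KO cells by MRPS9 and MRPS12, and in WT cells by MRPS18A and MRPL39. MRPL55 fell by 0.77 in OE (limma adjusted p = 0.0081), by 1.05 in KO (adjusted p = 0.00204) and by 1.28 in WT cells (adjusted p = 0.000533). MRPL10 fell by 0.81 in OE (adjusted p = 0.00892), by 0.60 in KO (adjusted p = 0.0333) and by 0.54 in WT cells (adjusted p = 0.0403). MRPL22 was the third that fell in OE cells, by 0.70 (adjusted p = 0.0301). Several of these calls rested on single libraries. The WT call of MRPL10 was lost without any 1 of the 4 WT libraries (limma adjusted p = 0.0949 to 0.14) and with TPM as deposited (adjusted p = 0.193). Its KO call was lost without KO dox a (adjusted p = 0.194) or KO control b (adjusted p = 0.192), and its OE call without OE dox a (adjusted p = 0.0792) or OE control a (adjusted p = 0.0631). In OE cells, MRPL55 lost its call without OE dox a (adjusted p = 0.0531) or OE control b (adjusted p = 0.0702), MRPL39 without OE dox a (adjusted p = 0.0812) or OE control a (adjusted p = 0.07), and MRPL22 without any of these 3 libraries (adjusted p = 0.0677 to 0.18) and with TPM as deposited (adjusted p = 0.0849).

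The 3 lines share no libraries in these comparisons, but the same fit gave each gene a common spread in all of them. Calls shared between lines are therefore not fully independent. Of the 78 members, 20 were called higher in each line (25.6%, against 15% of all genes) and 2, MRPL10 and MRPL55, lower in each (2.56%, against 14.2%). The 20 were MRPL12, MRPL15, MRPL20, MRPL21, MRPL23, MRPL39, MRPL45, MRPL49, MRPL50, MRPL57, MRPL58, MRPS7, MRPS9, MRPS11, MRPS12, MRPS16, MRPS17, MRPS18A, MRPS23 and MRPS33. Called or not, 47 members had a difference above 0 in all 3 lines, 17 below 0 in all, and 14 of mixed sign. Each line had 2 libraries a group, and single libraries moved these counts. The counts of all genes called within a line fell as well in the settings given next. The count called in KO cells (25) was 13 without KO dox a or without KO control b and 14 with TPM as deposited, and that in OE cells (28) was 14 without OE dox b, 16 without OE control a and 11 without OE control b.

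**Figure D3:**
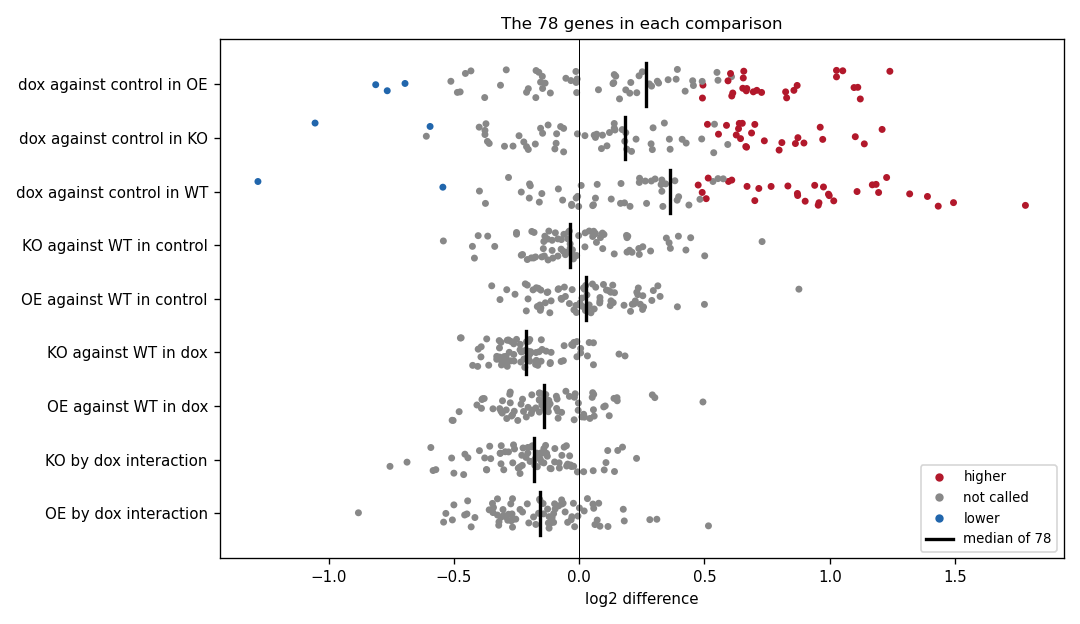
Log2 difference of each of the 78 genes in 9 comparisons, with dox against control in each line on top, then KO and OE cells against WT cells, first in control and then in dox medium, and the 2 interactions; dots are genes, black lines are medians, and colour marks the call. Called genes appear in the 3 dox comparisons only, and the medians of KO and OE against WT in dox lie at -0.21 and -0.14.

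No member was called between the lines. In control medium 0.177% of all genes were called between KO and WT cells and 0.275% between OE and WT cells. In dox these shares were 0.42% and 0.537%, and for the interactions of dox with KO and with OE 0.00655% each. At an unadjusted p under 0.05 in limma were 6 members between KO and WT in control (7.69%, against 8.85% of all genes), 6 between KO and WT in dox (7.69% against 5.45%), 3 between OE and WT in control (3.85% against 9.53%) and 5 between OE and WT in dox (6.41% against 6.35%). The interactions had 3 such members for KO (3.85% against 1.98%) and 1 for OE (1.28% against 2.59%). The members' shares were thus near those of all genes or below them, apart from slightly higher shares for KO against WT in dox and for the KO interaction. Limma with voom weights on the recovered reads also called 0 members in these 6 comparisons, and had 4, 7, 2, 5, 3 and 1 members at an unadjusted p under 0.05 in the same order.

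The median difference of the members was -0.21 for KO against WT in dox and -0.14 for OE against WT in dox, beside 0.01 for all genes in both, and 70 and 60 of the 78 differences were below 0. The same comparisons gave medians of -0.18 and -0.14 for the 82 nuclear genes of oxidative phosphorylation (76 and 65 below 0) and of -0.26 and -0.15 for the 85 cytosolic ribosomal protein genes (82 and 70 below 0). In control medium the medians were -0.04 for KO and 0.03 for OE, with 46 and 32 differences below 0. With TPM as deposited both turned sign, to 0.17 for KO and to -0.03 for OE. The medians of all genes there were 0.20 and -0.04. The KO median in control medium was also 0.05 without KO control a. The median for OE against WT in dox was -0.01 without OE dox a and -0.26 without OE dox b. With TPM as deposited it was -0.31, where that of all genes was -0.12. For the interactions of dox with KO and with OE, the members' medians were -0.18 and -0.16, with 69 and 63 differences below 0. Those of all genes were 0.00 and 0.01, and those of the cytosolic ribosomal protein genes 0.12 in both. The members' medians were -0.09 for KO without KO control b and -0.08 for OE without OE dox a. The KO and OE comparisons share the WT libraries, so these counts are not independent of each other.

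MRPS18A had the smallest unadjusted p between lines. In control medium it averaged 40.7 ± 7.92 scaled TPM in OE and 21.6 ± 3.06 in WT cells (SD, n = 2 each), a difference of 0.88 (limma adjusted p = 0.178). It averaged 36.8 ± 8.84 scaled TPM in KO cells against the same WT libraries, a difference of 0.73 (adjusted p = 0.28). In dox it averaged 62.4 ± 8.06 in OE, 61.3 ± 0.042 in KO and 62.4 ± 0.526 scaled TPM in WT cells. Its OE by dox interaction was -0.88 (adjusted p = 1) and its KO by dox interaction -0.76 (adjusted p = 1). MRPL38 averaged 26.7 ± 0.663 scaled TPM in OE control and 18.6 ± 1.37 in WT control (difference 0.50, adjusted p = 0.338), and MRPS30 22 ± 0.969 in OE dox and 31.7 ± 1.63 in WT dox (difference -0.51, adjusted p = 0.324). None of these passed the adjustment.

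Genes that act with the mitochondrial ribosome rose more often than they fell with dox over the 3 lines. Of all genes, 34.2% rose and 32.4% fell in this comparison. Of 6 further genes, other proteins of the ribosome and its membrane anchor OXA1L, 5 rose (83.3%) and none fell (median 0.39). CHCHD1, PTCD3, GADD45GIP1 and AURKAIP1 were among those that rose, with differences of 0.36 to 0.66. Of 26 assembly factors, 15 rose (57.7%) and 4 fell (15.4%), with a median of 0.34. DDX28, an RNA helicase of large-subunit assembly, averaged 10.4 ± 0.95 scaled TPM in dox and 2.52 ± 0.79 in control libraries (SD, n = 6 each), a difference of 1.72 (limma adjusted p = 2.37e-06). TRUB2, a pseudouridine synthase, averaged 15.9 ± 1.67 scaled TPM in dox and 4.99 ± 1.18 in control (difference 1.51, adjusted p = 5.69e-06). RCC1L, a guanine nucleotide exchange factor of large-subunit assembly, rose by 1.03 and MRM2, an rRNA methyltransferase, by 0.92. The 4 assembly factors that fell were METTL17 (-1.161), NOA1 (-0.640), MALSU1 (-0.405) and METTL15 (-0.375).

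Of 16 translation factors and regulators, 12 rose (75%, against 34.2% of all genes) and 1 fell (6.25% against 32.4%), with a median of 0.66. MTIF2, a mitochondrial initiation factor, averaged 35.7 ± 4.82 scaled TPM in dox and 17.3 ± 2.16 in control libraries (SD, n = 6 each, difference 1.00, limma adjusted p = 2.16e-05). MTIF3 was not called (0.05). GUF1, a homologue of a bacterial elongation factor, rose by 1.28, TACO1, an activator of COX1 translation, by 1.24, and LRPPRC, which stabilises mitochondrial mRNAs, by 0.87. The 1 that fell was C12orf65 (-0.33). Of 18 genes of mitochondrial transcription and RNA processing, 10 rose (55.6%) and 2 fell (11.1%), with a median of 0.35. The largest rise among them was that of TEFM, the elongation factor of mitochondrial RNA polymerase (1.29). HSD17B10 (0.97) and TRMT10C (1.25), subunits of the enzyme that cuts the 5′ ends of mitochondrial tRNAs, also rose. So did SUPV3L1, a helicase of RNA decay (0.56). The 2 that fell were POLRMT (-0.64) and TFAM (-0.34).

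Of 11 regulators of mitochondrial biogenesis, 3 rose (27.3%, against 34.2% of all genes) and 4 fell (36.4% against 32.4%), with a median of -0.15. MYC averaged 263 ± 45.2 scaled TPM in dox and 91.5 ± 29.8 in control libraries (SD, n = 6 each; difference 1.59, limma adjusted p = 0.000197). ESRRA, an orphan nuclear receptor, rose by 1.19 and KEAP1 by 1.14. YY1 fell by 0.70 (adjusted p = 0.000263), GABPA by 0.67, NRF1 by 0.51 and GABPB1 by 0.37. Of 82 nuclear genes of oxidative phosphorylation, 23 rose (28%) and 21 fell (25.6%), with a median of 0.05, and both shares were somewhat below those of all genes. The named rises were ATP5MC1 (1.02) and ATP5MF (0.96), subunits of ATP synthase, and NDUFB1 (0.90) and NDUFB9 (0.85), subunits of complex I. Of 85 cytosolic ribosomal protein genes, 3 rose (3.53%) and 78 fell (91.8%), with a median of -0.72. RPL12 averaged 253 ± 43 scaled TPM in dox and 809 ± 169 in control (difference -1.67, adjusted p = 8.33e-06), RPS2 and RPL28 fell by 1.29 and 1.03, and RPS27L, a p53 target, rose by 1.59. The difference between lists was not tested.

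**Figure D4:**
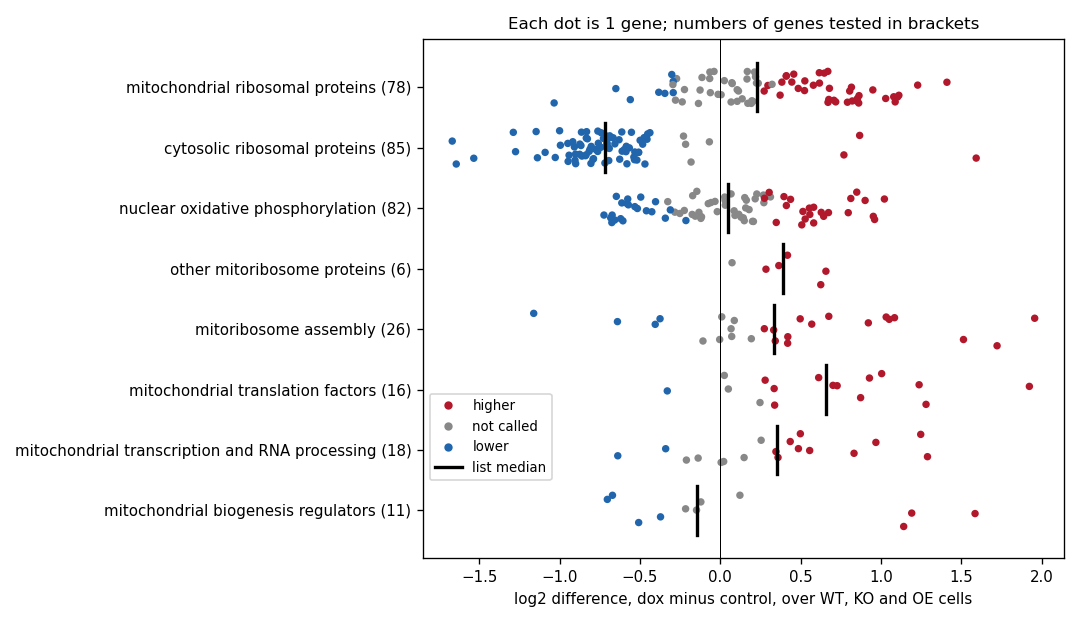
Log2 difference of dox minus control over the 3 lines for each gene of 8 lists, the mitochondrial ribosomal protein genes on top; dots are genes, black lines are list medians, and colour marks the call at an adjusted p under 0.05. The cytosolic ribosomal protein genes lie mostly left of 0 (median -0.72) and the mitochondrial ones spread around a median of 0.23.

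Many of the genes share their start region with another gene. A protein-coding gene started head to head within 1000 bases of 17 of the 78 members (21.8%), against 9.86% of 12572 tested protein-coding genes. Intervals between such starts are shown for pairs that moved apart or together, read on the strand of the gene named first. They are chr13:21176603-21176644 (plus strand) between MRPL57 and SKA3, chr16:1773156-1773206 (minus strand) between MRPS34 and EME2, with a pair of ETS matches in capitals, chr6:159789750-159789811 (plus strand) between MRPL18 and TCP1, and chr15:88467420-88467452 (minus strand) between MRPL46 and MRPS11.
MRPL57-SKA3: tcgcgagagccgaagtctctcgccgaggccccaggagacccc
MRPS34-EME2: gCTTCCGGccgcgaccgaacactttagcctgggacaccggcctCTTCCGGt
MRPL18-TCP1: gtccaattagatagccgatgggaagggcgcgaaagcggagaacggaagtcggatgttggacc
MRPL46-MRPS11: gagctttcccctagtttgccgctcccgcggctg

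Where both genes of a pair were tested, 9 of 14 members had the sign of their neighbour, with MRPS11 and MRPL46 counted for each other, beside 60.2% of the 540 such pairs of all genes. Spearman's rho between neighbours was 0.05 for the members and 0.19 over all pairs. The pairs named next were chosen after their values were seen. Over the 42 bases between MRPL57 and SKA3, a kinetochore gene, MRPL57 rose by 1.03 and SKA3 fell by 1.18 (limma adjusted p = 9.59e-06). MRPL27 rose by 0.41 and EME1, a subunit of a DNA endonuclease, fell by 1.91 (adjusted p = 2.85e-06). Beside MRPS34 (-0.29, not called), EME2 rose by 1.98 (adjusted p = 7.26e-05). MRPL18 rose by 0.62 and TCP1, a subunit of a cytosolic chaperonin, fell by 0.37 (adjusted p = 0.0282). Other pairs rose together: MRPS11 (0.82) with MRPL46 (0.58), MRPL50 (0.86) with ZNF189 (0.95) and MRPL36 (0.82) with NDUFS6 (0.35).

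**Figure D5:**
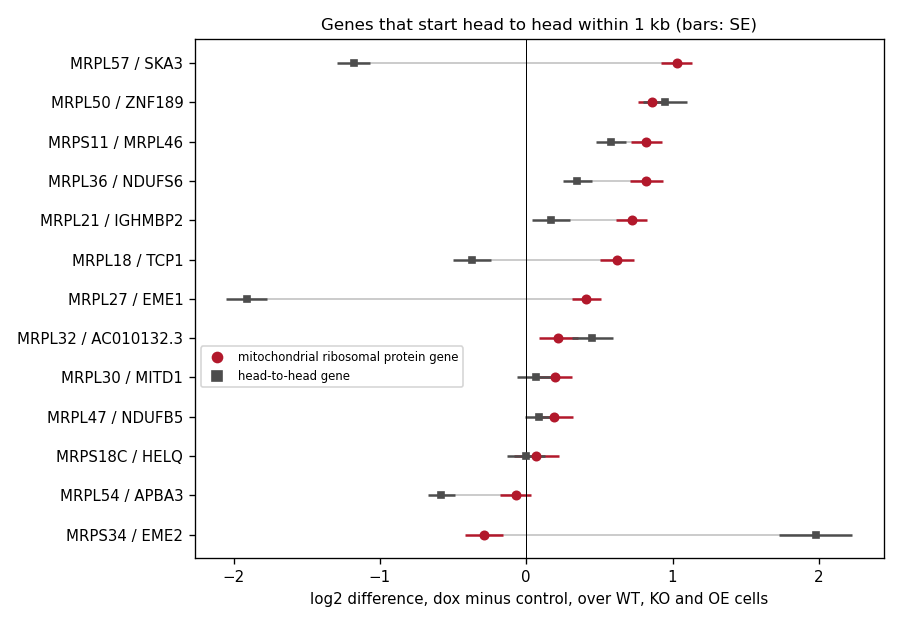
Log2 difference of dox minus control over the 3 lines for members (circles) and the gene that starts head to head with each (squares), with bars for the standard error; pairs run down the page by the member's difference. MRPL57 at 1.03 and SKA3 at -1.18 lie on opposite sides of 0, as do MRPL27 and EME1, MRPL18 and TCP1, and MRPS34 and EME2.

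Overlap of genes limits some of these values. On the other strand, 25 members overlap a listed gene, among them MRPS12 (SARS2), MRPS7 (GGA3 and MIF4GD), MRPL49 and MRPL20, and 15 overlap one on the same strand, among them MRPS16 (DNAJC9), MRPS17 and MRPS24. The strand setting of the read counting is not given in the sources used here, so reads of such pairs cannot be told apart with certainty. Of 75 annotated pseudogenes of the members, 5 were listed, with mean TPM of 0.86 to 6.82, so counts of MRPS31, MRPL45 and MRPL37 could be split with near-identical copies.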

How the data were processed

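The deposited values are log2 TPM, as the file's name and values show, 1 column per library, for 16676 genes, and the authors filtered and normalized them in ways the sources used here do not give. Each column sums to 1000000 TPM on the linear scale. The tools listed in the submitters' processing notes are featureCounts, HISAT2 2.0.4, edgeR 3.12.1 (under R 3.3.3) and SAMtools 1.7, and the build is hg38, with no order, annotation or strand setting. Libraries were stranded total RNA, per the labels' protocols. Groups and replicate letters come from the sample titles.

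Between 50 and 59.8% of each library's TPM lay on 318 genes of small and structural RNAs, so TPM was scaled by each library's median ratio. The 15256 genes that reached a deposited TPM of 1 in 2 or more libraries were fitted with limma 3.58.1 (R 4.3.3) on log2(scaled TPM + 1), with 6 group means over the 12 libraries, variances that follow the mean, 6 residual and 4.42 prior degrees of freedom. The 10 comparisons were contrasts, with Benjamini-Hochberg adjustment within each. The fit was tested on simulated data.

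Reads were recovered with GENCODE v29 exon lengths: 15182 genes (91.7%) gave whole reads within 0.05 in each library, 77 of the 78 members among them (not MRPL28). They served to learn the depth and for the voom alternative. Replicates correlated at 0.9679 to 0.9869 over all genes tested.

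The members, the gene lists and the rule for named genes were chosen with earlier results of these data known. The rule takes, in each comparison, called members whose libraries do not overlap, up to 10 each way over the 3 lines and 5 otherwise, the 5 highest and 5 lowest members, members with known roles, and 4 genes of each other list. Names outside it, such as the other members and list genes that fell, were chosen after their values were seen. Alternatives were TPM as deposited, a pseudocount of 0.1, no filter, the replicate letter as a block, voom, and leaving out each library.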

Additional observations from a re-analysis of the deposited data

How the results depend on the processing

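The depth per member (155 or more reads in each library, for the 77 with recovered reads) let all 78 be tested, with 2 libraries a group. Over the 3 lines the count of members called (45) was between 41 and 48 under all alternatives run, and 0 members were called between the lines under each. With TPM as deposited, 14 members were called with dox in KO cells (main value 25), and fewer of all genes were called there as well. Leaving out a library also lowered the count of all genes called either way within its line. Leaving out 1 library gave 11 to 20 in OE (28), 13 to 21 in KO and 23 to 29 in WT cells (33). Leaving WT control b and OE control a out together, which was chosen after seeing the data, gave 16 in OE, 25 in WT and 46 over the 3 lines. MRPS27, not called over the 3 lines, turned to 0.02 with TPM as deposited and ranged over -0.13 to 0.01 without single libraries (0.01 without KO dox a). MRPS18C, not called, turned to -0.05 without WT control b, to -0.02 without KO control a and to -0.11 without WT control b and OE control a together, and ranged up to 0.17. MRPS36 was called lower without WT control b (-0.40, limma adjusted p = 0.021) and with both libraries left out (-0.42, adjusted p = 0.0338). The cause of these changes was not tested; leaving out a library leaves 1 in its group, which is assumed to vary like the others. With the replicate letter as a block, the counts called with dox were 28 in OE, 27 in KO, 33 in WT cells and 44 over the 3 lines, and MRPS10 was no longer called over the 3 lines (-0.29, limma adjusted p = 0.0527 with the block, 0.0464 without), while MRPL36 (0.54, adjusted p = 0.0483) and MRPL22 (-0.61, adjusted p = 0.0463) became called in KO cells. The labels give no pairing by letter, and deviations of the same letter correlated at -0.41 to 0.81 over 15 pairs of groups, with 9 over 0.1, so the letters were not taken to pair the libraries. A pseudocount of 0.1, no filter on low values and voom moved no count of members called by over 1.5 times.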
